A study of Mus musculus with 6 samples.

Results

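The nuclear genes of respiratory complexes I to V were examined as 1 set in microglia, the macrophages that reside in brain tissue. Members were the rows of the count table whose mouse symbol begins Ndufa, Ndufb, Ndufc, Ndufs or Ndufv with a number, is Ndufab1, Sdha to Sdhd or Cyc1, or begins Uqcr, Cox4 to Cox8 or Atp5, without symbols marked as pseudogenes. The rule took 85 of 24956 gene rows: 36 of complex I, 4 of complex II, 9 of complex III, 19 of complex IV and 17 of complex V. Ndufa4 carries a complex I name but is a subunit of complex IV and was placed there. A component of ATP synthase listed under the older symbol Usmg5 does not match the rule and was not a member, and the 13 subunits encoded by mitochondrial DNA were not analysed here.

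All mice were 3XTg-AD animals of 7 months, an Alzheimer's disease model with mutant human APP and MAPT transgenes under a neuronal Thy1 cassette. Both groups therefore carry the same disease alleles. The 3 isotype libraries came from mice injected with a control antibody and the 3 anti-NK1.1 libraries from mice injected with an antibody that depletes natural killer (NK) cells, 25 µg each 4 days over 4 weeks in both cases. Whether a library holds 1 animal or a pool is not given in the sources used here, so p-values measure the spread between these libraries, which may be technical.

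Oxidative phosphorylation couples electron transfer to ATP synthesis at the inner mitochondrial membrane. Complex I takes electrons from NADH and complex II from succinate, both pass them through ubiquinone to complex III, cytochrome c carries them on to complex IV, and complex V uses the resulting proton gradient to make ATP. Complex II alone is wholly nuclear-encoded, while the other complexes combine nuclear subunits with subunits made inside the organelle. Microglia use both glycolysis and oxidative phosphorylation, and the balance between them is known to shift with their activation.

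Promoters are shown first because nuclear respiratory factor 1 (NRF1), the ETS factor GABPA and YY1 are known regulators of this set. Whether the letters bear on the levels in the libraries was not tested. RefSeq windows of GRCm38.p6, from 250 bases before to 50 after an annotated start, matched 69 of the 85 members. The NRF1 letters, GCGCA and GCGC with any 1 base between them and searched on both strands like all the others, lay in 17 of the 69 windows (24.6%), against 5.19% of 27025 genes with a window and 10.6% of the 11372 tested genes with one. The ETS letters CCGGAAG lay in 16 (23.2%), against 9.93% and 18.5%, and the YY1 letters AAGATGGC in 10 (14.5%), against 3.19% and 4.92%. TATAAA lay in 7 (10.1%), against 15.7% and 9.08%. By complex, NRF1 letters lay in 7 of 32 windows of complex I, 2 of 3 of complex II, 1 of 5 of complex III, 1 of 14 of complex IV and 6 of 15 of complex V. A match of letters is a description and not a bound site.

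The stretches below, each 60 bases read 5′ to 3′ on the gene's strand and ending at or before the annotated start, were chosen after the matches were seen, to show the letters in each complex. All lie on the minus strand of GRCm38.p6. Capitals mark NRF1 letters, in Ndufs6 (chr13:73328483-73328542) as the reverse complement, and as written in Sdhd (chr9:50603894-50603953), Cox6a1 (chr5:115349086-115349145) and Atp5h (chr11:115420026-115420085). Capitals mark the ETS letters in Uqcr11 (chr10:80406855-80406914) and, as the reverse complement, in Uqcrh (chr4:116075071-116075130). Cox8b (chr7:140900447-140900506), the muscle isoform with the largest log2 change of the set, has none of the letters searched in this stretch. TATAAA occurs elsewhere in its window.
Ndufs6: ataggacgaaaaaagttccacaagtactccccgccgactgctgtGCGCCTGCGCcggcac
Sdhd: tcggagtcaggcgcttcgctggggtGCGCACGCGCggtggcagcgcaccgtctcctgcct
Cox6a1: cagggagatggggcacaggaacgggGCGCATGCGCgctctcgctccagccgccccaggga
Atp5h: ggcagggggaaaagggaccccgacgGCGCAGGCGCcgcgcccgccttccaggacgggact
Uqcr11: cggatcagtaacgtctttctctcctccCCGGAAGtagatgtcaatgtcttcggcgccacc
Uqcrh: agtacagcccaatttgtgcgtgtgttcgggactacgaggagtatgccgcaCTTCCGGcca
Cox8b: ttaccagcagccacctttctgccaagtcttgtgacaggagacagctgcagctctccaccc

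Library totals over genes were 26.9 M to 36.1 M counts, and 3 counts corresponded to 0.0784 to 0.120 CPM (read counts per library total, on a common scale with trimmed-mean factors). Klrb1c, which encodes NK1.1, was counted 50, 45 and 80 times in isotype 1 to 3 and 0, 0 and 13 times in anti-NK1.1 1 to 3. Ncr1, the NK cell receptor NKp46, was counted 128, 53 and 0 times against 0, 0 and 0 times. The 8 microglial markers, among them P2ry12, summed to 23896 to 32149 CPM, so the labelled cell type was present in every library. Markers of other cells were also measured, and their part in the results below was not tested. The 9 neutrophil markers summed to 97219, 75990 and 69003 CPM in the isotype and 30454, 30963 and 134800 CPM in the anti-NK1.1 libraries. The 12 neuronal markers summed to 97.8, 48.6 and 167 CPM against 669, 225 and 382 CPM, and the 8 oligodendrocyte markers to 294 to 402 CPM against 758 to 883 CPM. All 12 and all 8 had log2 changes above 0, against 50.9% of all tested genes, while none was at 0 in all libraries. Of the 8 astrocyte markers, 4 were higher and 4 lower. Higher values were found for 2 of the 8 microglial, 0 of the 9 neutrophil and 1 of the 7 tested NK cell markers. In bulk RNA, fewer cells of a type and less RNA per cell cannot be told apart.

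Of the 85 members, 81 had enough counts to be tested, among 14520 genes. Ndufs5, an accessory subunit of complex I, and Cox8c, an isoform known from testis, had 0 counts in all 6 libraries. For Ndufs5 this does not show that the transcript was absent, and its reason was not tested. Cox7b2 had 3 counts in isotype 2 and 0 elsewhere. Cox4i2, the lung isoform of subunit 4, was counted 0, 2 and 9 times in isotype 1 to 3 and 20, 11 and 2 times in anti-NK1.1 1 to 3, and the ranges overlapped. The tested 81 passed a filter on counts, and figures over them do not describe these 4.

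Levels were compared between genes as CPM per kilobase of transcript, averaged over the 6 libraries. Cox4i1, a nuclear subunit that joins the core of cytochrome c oxidase early in its assembly, was the highest member at 969 CPM per kb, followed by Ndufa4 at 916 and Cox8a at 830. Within complex I the levels ran from 25.5 for Ndufs1 to 598 for Ndufa1, a 23.5-fold range around a median of 201 CPM per kb. Complex II had the lowest median, 113 CPM per kb, from 51.3 for Sdhc to 200 for Sdhb. Complex III ran from 70.1 for Uqcrc2 to 639 for Uqcr10 with a median of 371. In complex IV the lowest tested member was the muscle isoform Cox6a2 at 13.2 CPM per kb, and in complex V it was Atp5s at 10.4, which is named for ATP synthase but is not a subunit of it, while the medians of these complexes were 284 and 311. The lowest subunit of complex V was Atp5l at 17.9 CPM per kb and the highest Atp5mpl at 631. Tested members of complex IV, tissue isoforms included, differed in level by up to 73.4-fold.

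**Figure D1:**
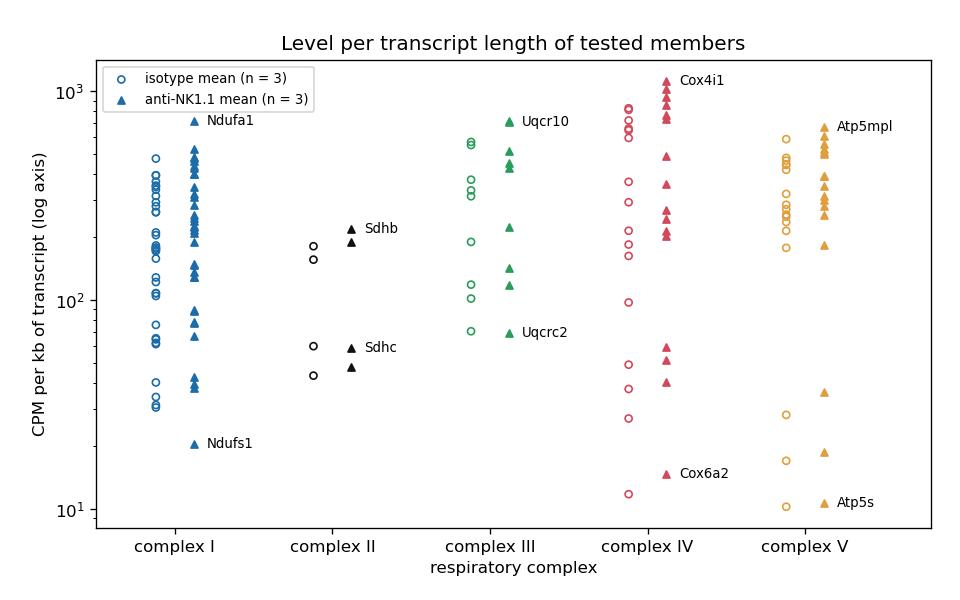
Level of each of the 81 tested members as CPM per kb of transcript (log axis), by complex; open circles are means of the 3 isotype and triangles means of the 3 anti-NK1.1 libraries, with the members highest and lowest over all 6 libraries named. Cox4i1 stands at the top of complex IV and Atp5s at the bottom of complex V, and both groups span nearly the same range within each complex.

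The labels imply 1 comparison, of anti-NK1.1 with isotype libraries. Of the 81 tested members, 78 had a higher fitted level in the anti-NK1.1 group and 3 a lower one (Ndufs1, Sdha and Uqcrc2), where 50.9% of all tested genes were higher. The median log2 change of the members was 0.31 and that of all tested genes 0.015. No member passed the test: 0 of 81 had an adjusted p under 0.05 by edgeR's quasi-likelihood test with Benjamini-Hochberg adjustment, against 0.0% of all genes, the smallest adjusted p of a member being 0.743. At an unadjusted p under 0.05 there were 0 members, against 950 genes (6.54% of those tested). DESeq2 called 83 genes (0.572%) and 0 members, and edgeR without anti-NK1.1 2 called 129 genes (0.861%) and 0 members.

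The spread between libraries of 1 group was wide. Summed over the members, the isotype libraries held 18906, 16819 and 10367 CPM and the anti-NK1.1 libraries 22084, 15591 and 19134 CPM. The groups overlapped, since anti-NK1.1 2 lay under isotype 1 and 2. The means were 15364 ± 4452 and 18936 ± 3251 (SD, n = 3 each), a ratio of 1.23. Against isotype 1 and 2 alone the ratio was 1.06. As a share of all gene reads the members held 1.88%, 1.70% and 1.104% in the isotype libraries and 2.18%, 1.70% and 1.65% in anti-NK1.1 1 to 3.

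Isotype 3 was the lowest of the 6 libraries for 77 of the 81 members (95.1%), against 20.4% of all tested genes. Its level was under both other isotype libraries in 80 of 81 members, with Sdha as the exception. The median member in isotype 3 stood at 0.549 of the mean of isotype 1 and 2, while the median tested gene stood at 0.988. At the other end, anti-NK1.1 1 was the highest library for 58 members (71.6%, against 22.1% of all genes), and anti-NK1.1 2 was the lowest of its group for 67. Measured from each gene's own mean, the median member deviated by 0.22, 0.01 and -0.75 on the log2 scale in the isotype and by 0.45, -0.10 and 0.22 in the anti-NK1.1 libraries. Groups did not overlap for 1 of 81 members, which is 1.23% against 7.73% of all tested genes higher without overlap, 7.59% lower and 15.3% in either direction.

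**Figure D2:**
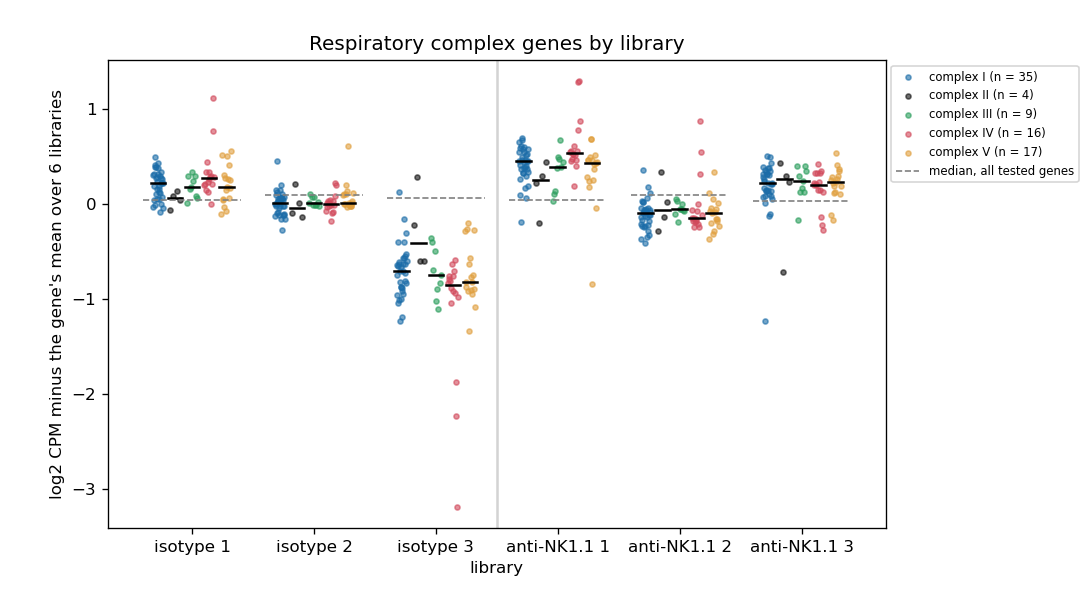
Each point is 1 tested member: its log2 CPM minus its own mean over the 6 libraries, by library and complex; black bars are medians of a complex and dashed lines the median of all tested genes. The members lie low in isotype 3 and high in anti-NK1.1 1, while the other libraries lie between them.

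Without isotype 3, the median log2 change of the members was 0.09, and 58 of 81 were higher, against 51.1% of all genes. Without anti-NK1.1 1 and 3 it was 0.03, with 44 of 81 higher. Without isotype 1 it was 0.56. The size of the difference between groups therefore moved with which libraries were kept. Of the fits with 1 library left out, the one without isotype 3 gave the smallest median. It was smaller still without anti-NK1.1 1 and 3 together.

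The members followed 1 profile over the 6 libraries. The median correlation of a member with the median profile of the set was r = 0.971 over 6 libraries, as a description of genes that share libraries and depth, and 61 of 81 members had r above 0.9. The 4 members with r under 0.5 were Sdha (-0.56), Ndufs1 (-0.27), Atp5s (0.10) and Ndufa10 (0.32). Their transcripts are 2900, 2590, 1485 and 2020 nucleotides long, while Sdhc, with the longest transcript of the set at 3171, had r = 0.953.

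Levels per gene are given for libraries 1, 2 and 3 of each group in that order, isotype first, and a value with ± in parentheses after them is the log2 change with its SE by edgeR. In complex I, 34 of 35 tested members had a log2 change above 0, with a median of 0.31 that was 0.10 without isotype 3. The NADH-oxidizing module, where electrons enter, held the exception. Ndufs1, the largest iron-sulphur subunit of that module, had 86.5, 83.9 and 66.9 CPM in the isotype and 53.7, 78.5 and 26.03 CPM in the anti-NK1.1 libraries. Anti-NK1.1 3 was lowest by far and anti-NK1.1 2 lay within the isotype range. The log2 change was -0.59 ± 0.37 (SE), and edgeR's adjusted p was 0.748. Ndufv1, the flavin-bearing subunit that binds NADH beside Ndufs1, had 116, 117 and 89.2 against 156, 104 and 131 CPM, and a log2 change of 0.28 ± 0.24. These subunits of 1 module thus had values of opposite sign.

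The ubiquinone-reducing module passes the electrons on, and all 8 of its tested members were on the higher side, with a median of 0.33 and of 0.15 without isotype 3. Its core subunits Ndufs3, Ndufs7 and Ndufs8 had log2 changes of 0.34, 0.43 and 0.31.

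The membrane arm, which pumps protons, had all 18 of its tested accessory subunits on the higher side. Ndufa1, a small X-linked subunit needed for assembly, had 255, 224 and 118 CPM in the isotype and 362, 241 and 305 CPM in the anti-NK1.1 libraries. Anti-NK1.1 2 fell between isotype 1 and 2, so the groups overlapped, and the log2 change was 0.60 ± 0.31 with an unadjusted edgeR p of 0.0789 and 0.33 without isotype 3. Ndufa13, also known as GRIM-19, had 268, 255 and 140 against 379, 245 and 338 CPM (0.54 ± 0.29). Ndufb9, which binds the mitochondrial acyl carrier protein family through its LYR motif, had 256, 212 and 125 against 343, 219 and 286 CPM (0.52 ± 0.30). Without isotype 3 these values were 0.29 and 0.27. Ndufb9 and Ndufa13 overlap exons of other genes over 28.6% and 29.98% of their transcripts, so their unstranded counts are less certain. Exons of 25 of the 85 members overlap another gene, among them Cox5a over 41.7% and Uqcrc2 over 26.6%.

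Complex II, succinate dehydrogenase, also serves the citric acid cycle. Sdha, which carries the flavin and oxidizes succinate, had 161, 176 and 185 CPM in the isotype and 133, 192 and 92.4 CPM in the anti-NK1.1 libraries. Isotype 3 was not low for Sdha, and anti-NK1.1 2 was the highest of all 6. The log2 change was -0.32 ± 0.28. Sdhb, the iron-sulphur subunit, had 216, 210 and 193 against 262, 185 and 303 CPM (0.28 ± 0.23), with anti-NK1.1 2 the lowest library. The catalytic pair summed to 377, 386 and 378 CPM in the isotype and 395, 377 and 396 CPM in the anti-NK1.1 libraries, a sum that varied little from library to library.

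The membrane anchors Sdhc and Sdhd, which bind ubiquinone, instead followed the rest of the set. Sdhc had 164, 144 and 105 against 215, 161 and 187 CPM, with a log2 change of 0.44 ± 0.24, an unadjusted edgeR p of 0.0980 and an adjusted p of 0.743. Only isotype 1 reached into the anti-NK1.1 range. Sdhd had a log2 change of 0.28 ± 0.26, and 0.09 without isotype 3.

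In complex III, 8 of 9 members had log2 changes above 0, with a median of 0.31 and of 0.11 without isotype 3, and isotype 3 was the lowest library for all 9. The small supernumerary subunits gave the larger values in this fit. After a correction for transcript length and GC content, described below, their median was 0.016. The medians of the redox subunits and core proteins were then 0.046 and 0.0017. Uqcr11 had 229, 186 and 86.9 CPM in the isotype and 297, 187 and 204 CPM in the anti-NK1.1 libraries (0.46 ± 0.35). Uqcrh, the hinge protein between cytochrome c1 and cytochrome c, had 204, 193 and 117 against 266, 187 and 249 CPM (0.45 ± 0.27). Uqcrb had 216, 207 and 114 against 266, 195 and 268 CPM (0.44 ± 0.28). In each of these genes anti-NK1.1 2 lay within or near the isotype 1 and 2 range.

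The redox and core subunits of complex III gave smaller values without that correction. Cyc1, cytochrome c1, had a log2 change of 0.27 ± 0.26, and Uqcrfs1, the Rieske iron-sulphur protein, 0.21 ± 0.26. Without isotype 3 both stood at 0.04. Of the core proteins, Uqcrc1 had 338, 339 and 263 against 345, 313 and 444 CPM (0.23 ± 0.22). Uqcrc2 had 162, 141 and 99.6 against 142, 136 and 117 CPM (-0.03 ± 0.24), so the anti-NK1.1 values lay inside the isotype range.

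Complex IV, cytochrome c oxidase, had all 16 tested members on the higher side, with the largest median of the complexes, 0.35, which was 0.09 without isotype 3. The difference between complexes was not tested. Cox4i1 had 797, 659 and 390 CPM in the isotype and 1013, 667 and 806 CPM in the anti-NK1.1 libraries (0.43 ± 0.29). Isotype 3 held less than the others by a wide margin and anti-NK1.1 2 lay close to isotype 2. Cox8a had 509, 429 and 254 against 648, 396 and 504 CPM (0.38 ± 0.30), Cox5a 224, 211 and 133 against 235, 184 and 274 CPM (0.29 ± 0.27). Ndufa4 had 488, 405 and 208 against 548, 396 and 439 CPM (0.33 ± 0.31). For these abundant subunits the order of the libraries was much the same. Cox7a2l, a factor that joins complexes III and IV into supercomplexes, had 46.4, 43.8 and 30.8 against 68.4, 39.2 and 59.1 CPM (0.46 ± 0.31), and 0.30 without isotype 3.

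**Figure D3:**
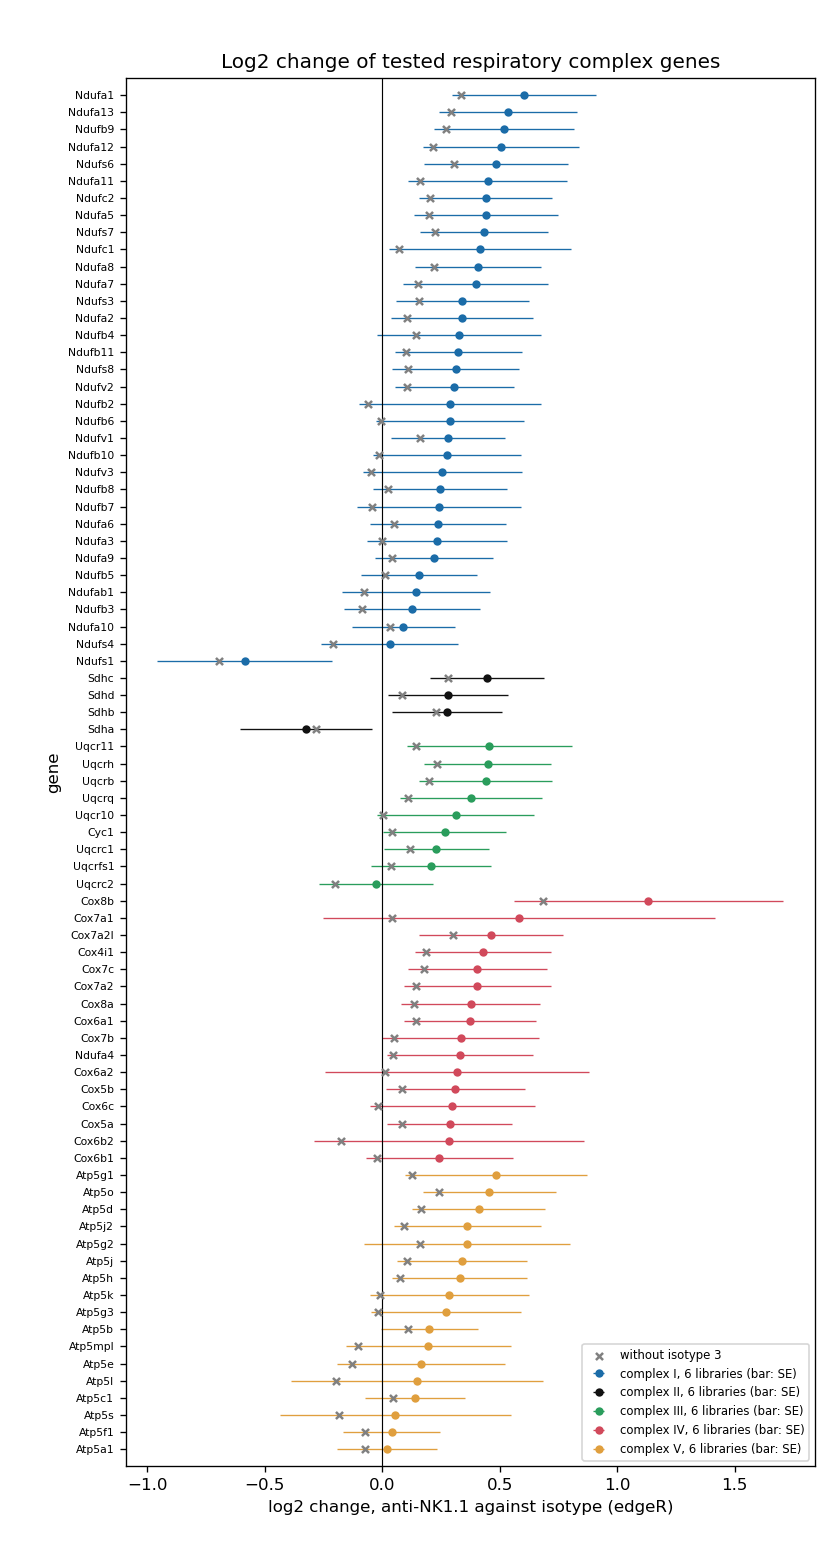
Log2 change of anti-NK1.1 against isotype for the tested members, 1 of them left out, ordered within its complex; points are edgeR fits over 6 libraries, bars 1 SE, and grey crosses the fit without isotype 3. Points lie right of 0 for all members shown but Ndufs1, Sdha and Uqcrc2, and the crosses lie closer to 0 for most.

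Complex IV also has isoforms known from other tissues, and 4 were above the filter: Cox8b, Cox7a1 and Cox6a2, the heart and skeletal muscle forms, and Cox6b2, the testis form. Cox8b had 51.5, 44.0 and 9.43 CPM in the isotype and 109, 81.3 and 40.5 CPM in the anti-NK1.1 libraries. Isotype 3 was lowest and anti-NK1.1 3 lay just under isotype 2, so the groups overlapped. Its log2 change, 1.13 ± 0.57, was the largest of the set, with an unadjusted edgeR p of 0.0783 and an adjusted p of 0.743. Without isotype 3 it was 0.68. Cox7a1 had 20.8, 10.1 and 0.993 against 23.4, 13.96 and 10.4 CPM (0.58 ± 0.83). Cox6b2 had 44.1, 30.1 and 7.03 against 44.4, 32.3 and 22.2 CPM (0.28 ± 0.57), and Cox6a2 10.1, 9.61 and 4.21 against 15.3, 7.68 and 6.90 CPM (0.32 ± 0.56). In isotype 3 the median of these 4 isoforms was 0.193 of the mean of isotype 1 and 2, lower than for any complex as a whole.

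A level relative to the common isoform cancels what both share. Cox8b made up 13.4%, 13.6% and 5.37% of the CPM per kb of Cox8a and Cox8b together in isotype 1 to 3 and 20.4%, 23.9% and 10.9% in anti-NK1.1 1 to 3. The means were 10.8% ± 4.68 and 18.4% ± 6.68 (SD, n = 3 each; exact two-sided permutation p = 0.3, where 0.1 is the smallest p that 3 against 3 allows). Cox7a1 made up 1.13% to 9.95% of its pair with Cox7a2 in the isotype and 4.92% to 9.20% in the anti-NK1.1 libraries (exact permutation p = 0.7). For Cox6b2 beside Cox6b1 the ranges were 3.16% to 8.49% and 4.87% to 9.18% (exact permutation p = 0.6), and for Cox6a2 beside Cox6a1 1.41% to 1.88% and 1.09% to 2.21% (exact permutation p = 1.0). Cox4i2 was at most 0.0760% of its pair with Cox4i1. It had an exact permutation p of 0.5, and over the 5 pairs the smallest Benjamini-Hochberg adjusted p was 0.875. Isotype 3 had the smallest share for Cox8b, Cox7a1 and Cox6b2. The 8 defining genes of heart and skeletal muscle summed to 1.39, 1.77 and 1.59 CPM in the isotype and 3.27, 2.95 and 5.06 CPM in the anti-NK1.1 libraries. No gene of them was above 2.31 CPM in any library, while Cox8b reached 109 CPM in anti-NK1.1 1. The source of the Cox8b reads was not tested.

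**Figure D4:**
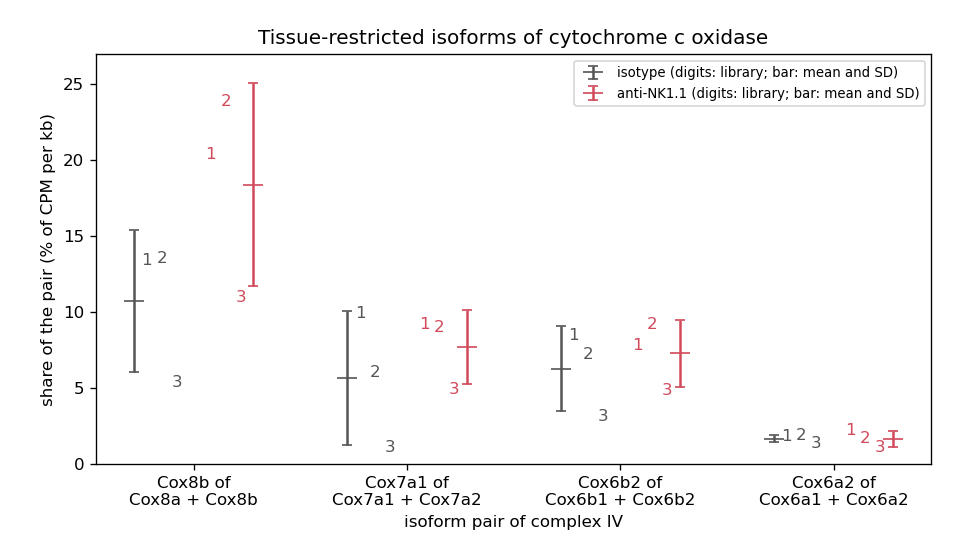
Share of the tissue-restricted isoform in each pair of complex IV genes, as a percentage of the pair's CPM per kb; digits are library numbers, bars the mean and SD of 3 libraries, grey for isotype and red for anti-NK1.1. The groups overlap in all 4 pairs, and Cox8b runs from 5.37% in isotype 3 to 23.9% in anti-NK1.1 2.

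Complex V, ATP synthase, had all 17 tested members on the higher side, with a median of 0.27, but 9 of 17 and a median of 0.05 without isotype 3. In the catalytic head, Atp5b, the beta subunit that makes ATP, had 838, 963 and 742 CPM in the isotype and 1102, 981 and 835 CPM in the anti-NK1.1 libraries (0.20 ± 0.21). Atp5a1, the alpha subunit, had 603, 712 and 539 against 733, 599 and 548 CPM, a difference of 0.02 ± 0.21. Both groups overlapped widely. The small delta subunit, Atp5d, had 254, 265 and 140 against 339, 235 and 302 CPM (0.41 ± 0.28). Relative to the mean of isotype 1 and 2, isotype 3 stood at 0.819 for Atp5a1, 0.824 for Atp5b and 0.817 for Atp5c1. It stood at 0.537 for Atp5d and 0.448 for Atp5e, the epsilon subunit. Over the 8 genes of the peripheral stalk and membrane part the median was 0.503, with Atp5f1 at 0.772.

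Atp5o encodes the stalk protein that gives the enzyme its oligomycin sensitivity. It had 180, 171 and 103 CPM in the isotype and 247, 155 and 220 CPM in the anti-NK1.1 libraries (0.46 ± 0.28), with anti-NK1.1 2 under isotype 1 and 2. Its transcript overlaps exons of Donson over 54.2% of its length, and the strand of reads was not marked.

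The ring of c subunits, which turns as protons pass, is encoded by Atp5g1, Atp5g2 and Atp5g3. Atp5g3 had 433, 377 and 185 against 492, 327 and 380 CPM (0.27 ± 0.32), Atp5g1 198, 180 and 65.2 against 263, 170 and 188 CPM (0.49 ± 0.39), and Atp5g2 15.1, 13.4 and 8.78 against 22.0, 10.95 and 14.9 CPM (0.36 ± 0.44). Atp5g3 held 63.3% to 71.5% of the 3 genes' CPM in every library, and Atp5g1 25.2% in isotype 3 and 30.7% to 33.9% in the others. Counts of Atp5g1 and Atp5g2 are uncertain, since every 75-base window of the Atp5g2 transcript and 50.4% of those of Atp5g1 also occur in transcripts of other genes, while none of Atp5g3 does. Atp5l, subunit g, shares 76.0% of its windows with 10 other genes and had only 4.28 to 13.5 CPM. Of the 85 members, 49 share no window with another gene and 5 share over 50% of theirs.

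What the rule did not use and most members have in common is a short transcript. The median length was 732 nucleotides, against 2721 for all tested genes. Across members the log2 change had a Spearman rho of -0.45 with transcript length, the deviation in isotype 3 0.69 and that in anti-NK1.1 1 -0.63 (81 genes that share libraries, given as a description). For the deviation of the members it was -0.44 and 0.18 in isotype 1 and 2, and 0.20 and -0.12 in anti-NK1.1 2 and 3. Over all tested genes with a length the rho was -0.015, 0.048 and 0.33 in isotype 1 to 3 and -0.16, 0.25 and -0.31 in anti-NK1.1 1 to 3. Short genes in general were thus lower in isotype 3 and in anti-NK1.1 2, and higher in anti-NK1.1 1 and 3.

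Within each class of transcript length the members' median in isotype 3 lay lower than the class median, as a description with no test. The class above 1500 nucleotides has no upper limit and holds 11389 tested genes. Its longest member has 3171 nucleotides, so members and other genes of that class can still differ in length. Up to 600 nucleotides, 27 members had a median deviation of -0.89 there, against -0.45 for all 403 tested genes of that length. From 600 to 1000 nucleotides it was -0.82 for 26 members against -0.40, from 1000 to 1500 it was -0.59 for 13 against -0.28, and above 1500 it was -0.35 for 15 against 0.17. The log2 change was closer: in the same classes the members had medians of 0.38, 0.33, 0.28 and 0.20, and all tested genes 0.22, 0.27, 0.25 and -0.08. After each library was corrected for transcript length and GC content, the members' median was 0.09, with 57 of 81 higher against 46.0% of all genes. With isotype 3 also left out, a setting chosen after seeing the data, it was -0.03, with 36 of 81 higher against 45.4% of all genes.

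**Figure D5:**
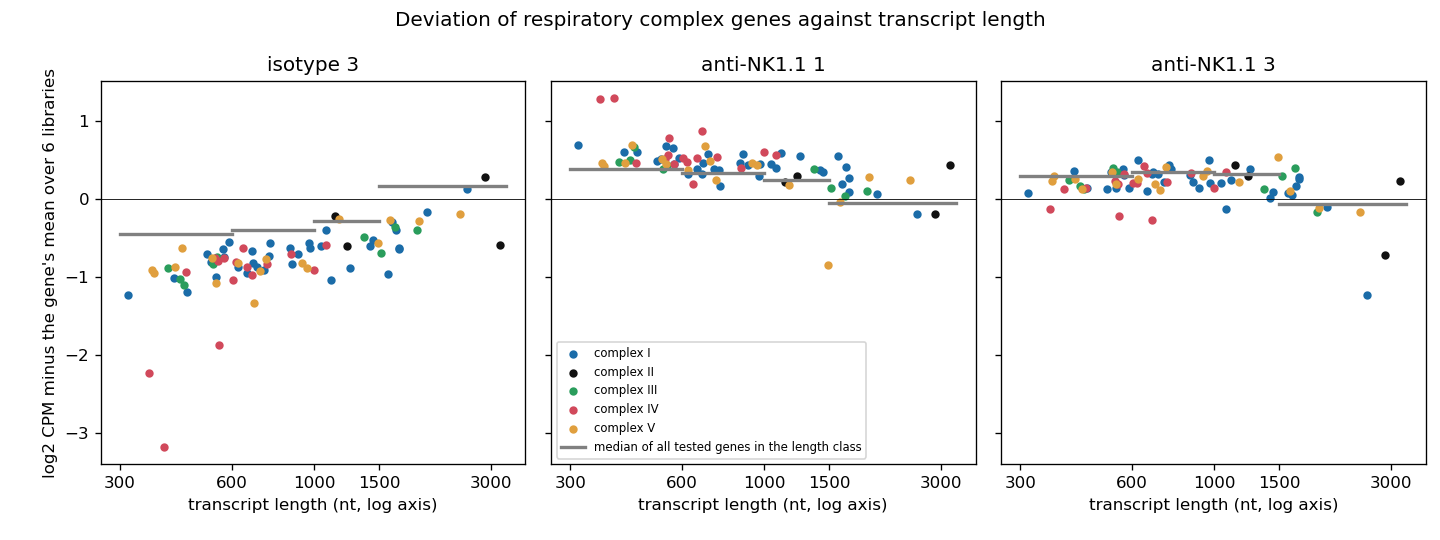
Deviation of each tested member from its own mean (log2 CPM) against transcript length (log axis) in isotype 3, anti-NK1.1 1 and anti-NK1.1 3, coloured by complex; grey bars are medians of all tested genes in 4 length classes. In isotype 3 most members lie under the bar of their class, and in anti-NK1.1 1 the short members lie above 0.

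Genes that serve the complexes without being subunits had mixed values, and no member of these lists had an edgeR adjusted p under 0.05. Genes named were among the 2 of smallest p in their list. Of all tested genes, 50.9% were higher and 15.3% had groups without overlap in either direction. Groups did not overlap for 2 of 14 factors of complex I, 0 of 4 of complex II and 1 of 6 of complex III. The same held for 1 of 21 tested factors of complex IV and 1 of 4 of complex V. Of 14 assembly factors of complex I, 12 were higher and 2 lower, with a median of 0.25 that was 0.01 without isotype 3. Ndufaf6 had 11.3, 10.4 and 9.33 CPM in the isotype and 16.6, 14.5 and 17.8 CPM in the anti-NK1.1 libraries, without overlap (0.66 ± 0.38). Of 6 complex III factors 4 were higher, with a median of 0.23. Uqcc3, a factor for cytochrome b, had 42.0, 42.3 and 42.4 against 69.2, 47.4 and 66.4 CPM, also without overlap (0.53 ± 0.26), and isotype 3 was not low for it. Among the 4 complex V factors, 3 were higher, and Tmem70, which helps to build the c ring, had 41.0, 49.8 and 32.1 against 83.5, 60.2 and 50.9 CPM (0.66 ± 0.29). A narrow gap separated its groups.

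Of 21 tested assembly factors of complex IV, 13 were higher and 8 lower, with a median of 0.08, and of -0.08 without isotype 3. The difference from the subunits of complex IV was not tested. Coa5 had 76.9, 59.4 and 66.0 CPM in the isotype and 35.0, 56.2 and 41.6 CPM in the anti-NK1.1 libraries, all lower (-0.61 ± 0.27, unadjusted edgeR p of 0.0512). Cox15, which makes heme A for the enzyme, had 22.5, 28.3 and 34.8 against 10.05, 25.9 and 15.2 CPM (-0.74 ± 0.42). For complex II, 3 of 4 factors were higher, with a median of 0.09. Cycs, cytochrome c itself, had 58.3, 48.7 and 24.6 against 55.2, 44.8 and 52.8 CPM (0.22 ± 0.34), with isotype 3 again the lowest.

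The citric acid cycle, which supplies NADH and succinate, had 7 of 13 genes higher and 6 lower, with a median of 0.02. Idh3a, a catalytic subunit of its NAD-dependent isocitrate dehydrogenase, had 110, 111 and 99.8 against 81.8, 89.5 and 73.7 CPM, lower without overlap (-0.39 ± 0.21). Of 11 regulators of mitochondrial biogenesis, 3 were higher and 8 lower, with a median of -0.08. Groups did not overlap for 1 of the 13 cycle genes and 2 of the 11 regulators, beside 15.3% of all tested genes. Nrf1, whose letters were searched in the promoters above, had 36.2, 40.8 and 39.2 against 32.8, 24.8 and 18.9 CPM, again lower without overlap (-0.60 ± 0.31, unadjusted edgeR p of 0.0817). Isotype 3 was the lowest library for 0 of the 11 regulators and 2 of the 13 cycle genes, and for 8 of 14 assembly factors of complex I, 2 of 4 of complex II, 2 of 6 of complex III, 11 of 21 of complex IV and 3 of 4 of complex V, beside the 20.4% of all tested genes. These lists differ in length, with median transcripts of 3656 nucleotides for the regulators, 2544 for the cycle and 1333 for complex IV assembly.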

How the data were processed

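RNA from sorted microglia was measured in 6 libraries, 3 per group. Per the labels, cDNA was made with SMART-seq v4 and Nextera XT, which add no molecular identifiers and mark no strand, and read as 75 bp single ends, so floors cover counting error only. The submitters' processing notes name STAR 2.5.3a, Cufflinks 2.0, DESeq2 1.1 (for steps they do not state), bcl2fastq 2.20.0.422 and FastQC 1.0.0, and build mm10. Counting program and annotation: not given in the sources used here. As deposited, the table is called normalized by the authors, but holds whole-number read counts with unequal totals. Reads in no feature, 53.3% to 57.4%, and 26 rows with a date for a symbol were left out.

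Genes passing filterByExpr were scaled with TMM factors and tested two-sided with edgeR 4.0.16 (quasi-likelihood F-test, R 4.3.3), with Benjamini-Hochberg adjustment over 14520 genes and a threshold of 0.05. An SE is the absolute log2 change divided by the square root of F. Biological coefficients of variation shared a value of 0.640. On simulated counts of this comparison over 14078 genes, 3.13%, 40.9% and 76.6% of genes changed by 1, 2 and 4 on the log2 scale were called, with 3 false calls. DESeq2 1.42.0, other scalings, no filter, a replicate block, a length and GC correction (splines with 5 degrees of freedom per library) and left-out libraries were alternatives. Per-library deviations use log2 CPM with a prior count of 2. Same-numbered libraries did not deviate together (r of 0.053, 0.030 and -0.004), which cannot exclude a pairing. The labels state no pairing, so the main fit used no block.

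Length and GC came from the GENCODE annotation of GRCm38, for 99.1% of tested genes, from the transcript of median length in the best annotated tier. This replaced the longest transcript after results were seen, and both are given. Members and gene lists were chosen with earlier results of these data known. Genes named in full are, per complex, the 3 of smallest p, core subunits, tissue isoforms, all lower members and the 3 highest per kb, and in other lists up to 2 of smallest p. Some genes this takes are not reported here.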

Additional observations from a re-analysis of the deposited data

How the results depend on the processing

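No respiratory gene was called at an adjusted p under 0.05 under any setting run. Over all genes, leaving out 1 library gave 0 to 129 calls by edgeR, 129 being without anti-NK1.1 2 (0.861% of the genes tested then), and DESeq2 gave 83. With 1 library left out, the members' median ranged from 0.086 (without isotype 3) to 0.56 (without isotype 1), that of complex I from 0.10 to 0.54, II from 0.16 to 0.43, III from 0.11 to 0.61, IV from 0.085 to 0.63 and V from 0.047 to 0.55, and 58 to 79 members were higher. Without anti-NK1.1 1 and 3 together, where the lone anti-NK1.1 library is assumed to vary like the isotype group, medians were 0.064 for complex II, -0.021 for IV and -0.0098 for V, and 44 members were higher. Size factors of the DESeq2 kind gave a members' median of 0.34, unscaled library totals 0.25 and no filter 0.31. The labels do not say that replicate numbers pair the libraries. With the replicate block the members' median was 0.36 and 0 genes were called.

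Under the length and GC correction the median of complex II was 0.033, and 0.035 with the replicate block added. With isotype 3 also left out, medians were -0.030 for all members and for complex I, 0.0003 for II, -0.22 for III, -0.027 for IV and -0.029 for V, with 36 members higher. Using the longest transcript instead, the members' median was 0.12 and that of complex II 0.017, and without isotype 3 they were -0.0030 for all members and complex I, 0.0009 for II, 0.011 for III, 0.050 for IV and -0.057 for V, with 40 members higher, so the sign for III and IV differed with the transcript chosen. The cause of these shifts was not tested.

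Of 32 genes followed under every setting, 9 kept their sign throughout: Atp5b, Atp5o, Cox8b, Ndufa1, Ndufa4, Ndufs1, Sdhc, Uqcrb and Uqcrh. The others that are reported here turned as follows, in log2 change. Under the length and GC correction the values were Atp5d -0.24, Atp5g2 -0.076, Cox4i1 -0.082, Cox8a -0.16, Cyc1 -0.067, Ndufa13 -0.082, Ndufv1 -0.10, Sdhb -0.11, Uqcr11 -0.016, Uqcrc1 -0.20 and Uqcrc2 0.20. With the replicate block added they were Atp5d -0.22, Atp5g2 -0.086, Cox4i1 -0.062, Cox8a -0.14, Cyc1 -0.034, Ndufa13 -0.040, Ndufv1 -0.098, Sdhb -0.11, Uqcrc1 -0.19 and Uqcrc2 0.20. By the longest transcript they were Atp5d -0.14, Atp5g2 -0.13, Cox4i1 -0.092, Cox8a -0.14, Cyc1 -0.083, Ndufa13 -0.091, Ndufv1 -0.12, Sdhb -0.12, Uqcrc1 -0.22 and Uqcrc2 0.17. With the correction and without isotype 3 they were Atp5a1 -0.029, Atp5d -0.40, Atp5g1 -0.14, Atp5g2 -0.17, Atp5g3 -0.076, Cox4i1 -0.24, Cox6a2 -0.13, Cox6b2 -0.37, Cox7a1 -0.10, Cox8a -0.30, Cyc1 -0.25, Ndufa13 -0.26, Ndufb9 -0.030, Ndufv1 -0.18, Sdhb -0.054, Uqcr11 -0.26, Uqcrc1 -0.27 and Uqcrc2 0.028. The same by the longest transcript gave Atp5a1 -0.050, Atp5d -0.33, Atp5g2 -0.21, Atp5g3 -0.057, Cox4i1 -0.24, Cox6a2 -0.091, Cox6b2 -0.39, Cox7a1 -0.062, Cox8a -0.27, Cyc1 -0.26, Ndufa13 -0.27, Ndufv1 -0.19, Sdhb -0.042, Uqcr11 -0.23, Uqcrc1 -0.28 and Uqcrc2 0.011. Without anti-NK1.1 1 and 3 the values were Atp5a1 -0.039, Atp5g2 -0.17, Atp5g3 -0.0098, Cox5a -0.035, Cox6a2 -0.048, Cox7a2l -0.034, Ndufv1 -0.040, Sdha 0.145, Sdhb -0.15, Uqcrc2 0.029 and Uqcrfs1 -0.099. With 1 library left out, Atp5a1 ranged from -0.11 to 0.13, Atp5g3 from -0.019 to 0.53, Cox6a2 from -0.13 to 0.55, Cox6b2 from -0.17 to 0.85 and Uqcrc2 from -0.20 to 0.15. Unscaled totals gave Atp5a1 -0.032, and both DESeq2 and its size factors gave Uqcrc2 0.0008. The median SE of the log2 change was 0.296 for the tested members and 0.515 for all tested genes. The rates of calls given above were taken over genes at large, and a rate for the members alone was not tested.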
